A study of Mus musculus with 6 samples.

Results

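Adhesion G protein-coupled receptors (adhesion GPCRs) are cell surface receptors with a long extracellular region that binds other cells or the matrix. The 30 genes described here are the protein-coding genes of a table of 56953 genes whose mouse symbol is Adgr with a letter and a number, or Celsr with a number, and they make up 9 subfamilies. Of these, 13 held at least 10 normalized counts in at least 3 of the 6 libraries and were tested. The remaining 17 stayed under that filter.

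The study sequenced polyadenylated RNA from wild-type (WT) and GαqKO mouse embryonic fibroblasts (MEFs), with 3 libraries of each genotype, to compare gene expression with and without Gαq. The cells called GαqKO are Gαq/11 knockout MEFs, so the loss of Gα11 comes with the loss of Gαq, while the WT cells carry neither loss. Both came from another laboratory and, per the study's general culture methods, grew in DMEM with 10% fetal bovine serum. For the sequenced cells no treatment is described, and their confluence and serum state are not given. The replicates are described as biological. No source used here names separate lines, embryos, ages or strains behind them, so genotype and the MEF stock that carries it cannot be told apart, and p-values measure the spread between these libraries. A normalized count is a gene's read count divided by 1 size factor per library, as the authors deposited it. The libraries summed to between 11392429 and 11483486 normalized counts, and the reads behind 5 of them numbered between 9853000 and 12229175. The single library values below are in the order of replicates 1, 2 and 3.

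Gnaq, the gene of Gαq, had 1665, 1660.2 and 1747 normalized counts in WT and 1959.7, 1931 and 1888 in the libraries labelled GαqKO. It was not lower in them but slightly higher (log2 fold change 0.19, adjusted p = 0.00212), so GαqKO stands below for the libraries so labelled, and every direction rests on the labels. Counts over a whole gene do not show whether a transcript is intact. Gna11, the gene of Gα11, had 2141, 2179.9 and 2123 normalized counts in WT and 472, 464 and 419 in GαqKO, a log2 fold change of -2.25 (adjusted p = 9.16e-13).

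In an adhesion GPCR the long extracellular region carries adhesion domains and, in most members, a site where the receptor is cut into 2 fragments that stay together. Binding of a ligand on a neighbouring cell or in the matrix can expose a short tethered peptide next to the membrane, which activates the receptor and, through it, G proteins or small GTPases. Members are known from the patterning of epithelia (Celsr), the growth of brain vessels (Adgra2), synapse formation (Adgrl, Adgrb), myelination by Schwann cells (Adgrg6) and leukocytes (Adgre), and several are found in fibroblasts.

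In the GαqKO libraries Adgra2 and the 3 latrophilin genes Adgrl1, Adgrl2 and Adgrl3 were higher than in WT, and Celsr1, Celsr2, Adgrb2, Adgrg1 and Adgrg6 were lower. The changes differed widely in size. Adgra2 was 5.31-fold higher, Adgrb2 16.3-fold lower, Celsr1 31.99-fold lower, and Celsr2 at least 50.8-fold lower, while the other called members differed by 1.51-fold to 2.04-fold. A member was called at an adjusted p under 0.05 from limma, corrected over all 14096 genes tested. By that rule 4 of the 13 tested members (30.8%) were higher, against 31.8% of all tested genes, and 5 (38.5%) were lower, against 34.1%. Both shares lie near the background. With DESeq2 on 5 libraries Adgrl1 was not called, which left 3 members higher. With a log2 fold change over 1 or under -1 as well, the threshold in the study's methods, 2 members were higher (15.4%, against 10.2% of all genes) and 3 were lower (23.1%, against 10.5%). Adgrl3 (1.04) stood just inside this threshold and Adgrg1 (-0.99) just outside it. Every GαqKO library lay above every WT library in 3 tested members (23.1%), against 33.8% of all tested genes, and below every WT library in 6 (46.2%), against 35.8%. The median log2 fold change of the tested members was -0.08, against -0.01 for all tested genes, and the median size of the change without its sign was 0.82, against 0.39. Celsr2 passed the filter through its WT libraries alone, so, having passed, it had to be higher in WT. Celsr1 (10.3, 3.47 and 10.1 in GαqKO) and Adgrb2 (6.57, 15.0 and 7.05) also needed WT libraries to pass. For them passing did not by itself set the direction.

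**Figure D1:**
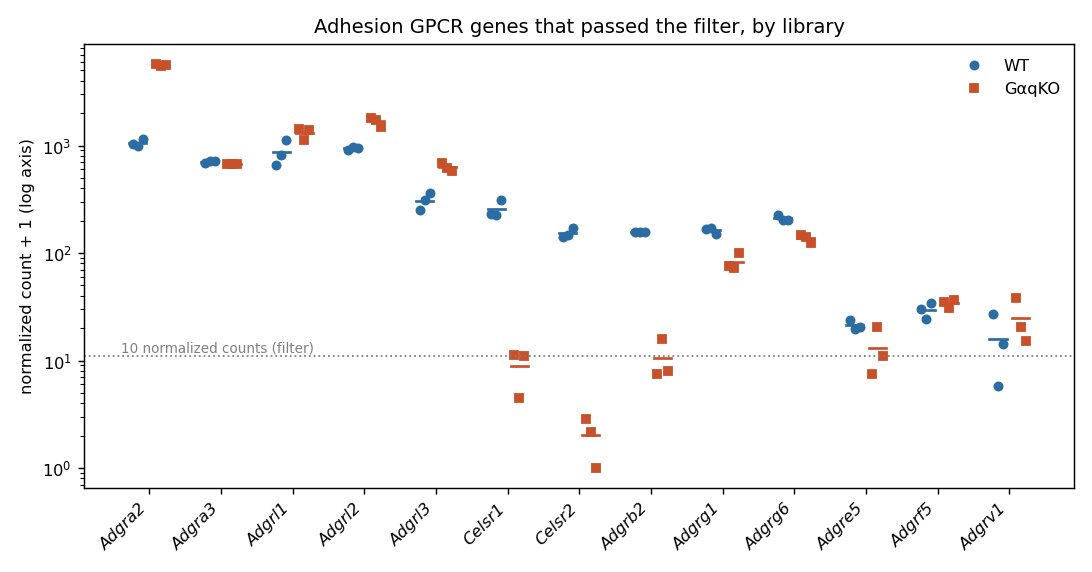
Normalized counts plus 1, on a log axis, of the 13 tested adhesion GPCR genes in the 3 WT libraries (circles) and the 3 GαqKO libraries (squares), with a line at each group mean and a dotted line at the filter of 10. Adgra2 averages 1057 in WT and 5615 in GαqKO, Celsr1, Celsr2 and Adgrb2 sit at or under 15.0 in GαqKO and far above it in WT, and the points of Adgra3 lie almost level.

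The members with a log2 fold change over 2 in either direction are Celsr2, Celsr1, Adgrb2 and Adgra2, and the 200 bases before the start of their canonical transcript are printed here so that the genes that moved most can be set side by side. The sequences were read from the GRCm39 genome at the GENCODE release 39 start site, 5′ to 3′ on the strand of the gene, and the capitals mark CpG dinucleotides.
Celsr2, chr3:108323398-108323597, minus strand: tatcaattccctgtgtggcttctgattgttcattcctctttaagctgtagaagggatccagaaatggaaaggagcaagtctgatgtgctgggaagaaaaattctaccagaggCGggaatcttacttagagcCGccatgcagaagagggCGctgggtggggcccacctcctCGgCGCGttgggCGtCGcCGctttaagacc
Celsr1, chr15:85918439-85918638, minus strand: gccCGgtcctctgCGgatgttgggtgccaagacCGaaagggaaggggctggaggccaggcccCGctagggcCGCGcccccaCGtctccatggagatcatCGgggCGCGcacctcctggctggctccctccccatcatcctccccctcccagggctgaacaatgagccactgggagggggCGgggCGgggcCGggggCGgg
Adgrb2, chr4:129878155-129878354, plus strand: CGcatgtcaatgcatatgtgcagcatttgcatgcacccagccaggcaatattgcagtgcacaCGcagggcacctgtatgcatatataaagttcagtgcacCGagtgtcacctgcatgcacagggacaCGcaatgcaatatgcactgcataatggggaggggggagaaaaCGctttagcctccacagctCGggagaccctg
Adgra2, chr8:27575314-27575513, plus strand: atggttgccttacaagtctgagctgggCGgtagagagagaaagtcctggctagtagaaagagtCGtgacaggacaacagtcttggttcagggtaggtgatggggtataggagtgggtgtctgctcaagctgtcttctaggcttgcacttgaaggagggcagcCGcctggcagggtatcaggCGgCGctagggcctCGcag
The Celsr1 window held 14 CpG, the Celsr2 window 9, and the windows of Adgrb2 and Adgra2 6 each. Across the tested members the median was 9 CpG (range 1 to 18), and across those under the filter it was 3 (range 0 to 41). All tested protein-coding genes had a median of 11 and the untested ones a median of 2, so the members followed the same split as other genes. Of the Celsr2 window 185 bases, and of the Celsr1 window 142, lie in an annotated exon of another gene. The Adgrb2 window lies inside the span of Adgrb2 itself, which starts at 129877901, so an earlier annotated start precedes it. The other 3 windows lie just outside the span of their gene. The E-box CAGGTG or its reverse complement CACCTG, the letters bound by repressors of the Snail and Zeb families, was found in the Adgrb2 window, with 2 matches, and in none of the other 3. It occurred in 4 of the 30 member windows and in 14.3% of 21651 windows of protein-coding genes, and a match is a description of the letters only.

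Adgra2 (ENSMUSG00000031486.16; chromosome 8, 27575514 to 27613464, plus strand) encodes the receptor that works with the anchored protein Reck to pass on Wnt7 signals in brain vessels, and it was the most abundant member in both genotypes per kilobase of exon. It had 1033, 989 and 1148 normalized counts in WT and 5707, 5545 and 5593 in GαqKO. The groups stood far apart, and the libraries within each were close together. The log2 fold change was 2.41 (SE 0.0537, adjusted p = 2.75e-13), and the WT and GαqKO means were 1057 ± 82.3 and 5615 ± 83.3 (SD, n = 3 each). Adgra3 (ENSMUSG00000029090.13; chromosome 5, 50116808 to 50216574, minus strand), a relative of the same subfamily, had 687, 719.8 and 718 normalized counts in WT and 676, 666 and 673 in GαqKO. Its GαqKO values all lay a little below the WT values, yet the log2 fold change of -0.08 (95% interval -0.20 to 0.04, adjusted p = 0.246) was not called. Adgra1, the other member of the A subfamily, was at or under the floor of 3 counts in every library. The known partners of Adgra2 did not follow it as a group. Reck had 41.8, 47.6 and 40.7 normalized counts in WT and 41.3, 47.4 and 42.3 in GαqKO, with overlapping groups and a log2 fold change of 0.01 (95% interval -0.42 to 0.44). Wnt7b, one of its ligands, had 32.4, 32.1 and 46.8 normalized counts in WT and 0, 1.16 and 0 in GαqKO, at least 12.4-fold lower (adjusted p = 7.28e-07), and it passed the filter through WT alone. The other ligand, Wnt7a, did not exceed 6.27 normalized counts. Endothelial marker genes, which would accompany Adgra2 in vessels, were low in both groups, summing over the 5 listed (Pecam1, Cdh5, Kdr, Tek and Emcn) to 12.6 to 23.0 normalized counts in the WT libraries and 18.8 to 26.6 in the GαqKO libraries. Only Pecam1 of these was tested, and it was not called. In bulk RNA, fewer cells of a type and less RNA per cell cannot be told apart, here and below.

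The latrophilins, encoded by Adgrl1, Adgrl2 and Adgrl3, are adhesion GPCRs that bind teneurins and FLRT proteins on neighbouring cells. All 3 were called higher in GαqKO. Adgrl2 (ENSMUSG00000028184.13; chromosome 3, 148518957 to 148696229, minus strand) had 913, 971 and 953 normalized counts in WT and 1799, 1724 and 1500.5 in GαqKO. Its groups did not overlap, and the log2 fold change was 0.82 (SE 0.0646, adjusted p = 8.10e-08). Adgrl3 (ENSMUSG00000037605.17; chromosome 5, 81167344 to 81972980, plus strand) had 252, 309.9 and 359 normalized counts in WT and 686, 610.5 and 584 in GαqKO. All its GαqKO libraries lay above all its WT libraries, with a log2 fold change of 1.04 (SE 0.111, adjusted p = 1.90e-06). Adgrl1 (ENSMUSG00000013033.17; chromosome 8, 84626588 to 84668583, plus strand) had 659.9, 811 and 1125 normalized counts in WT and 1422, 1124 and 1379 in GαqKO. Its WT libraries spread most widely of the well-counted members, and its groups touched, as WT replicate 3 equalled GαqKO replicate 2 to within 1 count. The log2 fold change of Adgrl1 was 0.62 (SE 0.145, adjusted p = 0.00179), but a DESeq2 test on the reads of the 5 libraries in which they could be recovered gave 0.56 with an adjusted p of 0.159, which ended the call. In GENCODE release 39 all exon bases of Adgrl1 lie inside the span of another gene, Gm10644, and 15.4% inside exons of other genes. Its count may thus depend on how reads at shared bases were assigned. Of the exon bases of Adgrl3, 23.0% lie inside other spans and 7.43% inside other exons, and of those of Adgrl2 15.3% and 2.84%. Adgrl4, a member best known from endothelium, stayed at 1.01 to 4.18 normalized counts.

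Among the 10 listed genes of latrophilin ligands 6 were tested, and Flrt2 and Tenm3 were called higher in GαqKO and none lower. Over all tested genes the shares were 31.8% higher and 34.1% lower. Flrt2, a membrane ligand of the latrophilins, had 284, 270.1 and 352 normalized counts in WT and 1385, 1260.3 and 1274 in GαqKO. It was higher in every GαqKO library, with a log2 fold change of 2.12 (SE 0.0889, adjusted p = 1.14e-10). Tenm3, the most abundant teneurin gene here, had 1229, 1368 and 1676 normalized counts in WT and 1855, 1915 and 1688 in GαqKO. Its difference was smaller, with a log2 fold change of 0.36 (adjusted p = 0.00274), and its highest WT library lay just under its lowest GαqKO library. Tenm2, Tenm4 and Nrxn3 were not called and had overlapping groups, with adjusted p of 0.787, 0.86 and 0.583. Flrt1 and Flrt3 were listed at 0 in all 6 libraries. Both lie wholly inside the span of another gene, Flrt3 without and Flrt1 with 3.65% of its exon bases shared with other exons. Of 541 protein-coding genes placed like Flrt3, 84.3% had no count in any library, compared with 25.2% of 11516 free of overlap, so a listed 0 may not be the level of such a gene.

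Celsr1, Celsr2 and Celsr3 encode the cadherin-type members, which carry planar cell polarity, the alignment of neighbouring cells within a sheet, together with Frizzled and Vangl proteins. The 2 that were tested fell to a few counts. Celsr1 (ENSMUSG00000016028.12; chromosome 15, 85783126 to 85918438, minus strand) had 232, 223 and 308 normalized counts in WT and 10.3, 3.47 and 10.1 in GαqKO. The highest GαqKO library lay far below the lowest WT library, and the log2 fold change was -4.94 (SE 0.321, adjusted p = 1.07e-08). Celsr2 (ENSMUSG00000068740.15; chromosome 3, 108298165 to 108323397, minus strand) had 139.9, 148 and 170.0 normalized counts in WT and 1.88, 1.16 and 0 in GαqKO. With every GαqKO library under the floor of 3 counts, the mean WT level of 153 ± 15.6 (SD, n = 3) was at least 50.8-fold higher, at an adjusted p of 5.58e-09. Celsr3 was at 0 in all WT libraries and had 0.939, 2.31 and 5.04 normalized counts in GαqKO, too few to be tested.

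The planar cell polarity partners were all counted well enough to be tested, and of the 10 listed 6 were lower, 1 was higher and 3 were not called, where 34.1% of all tested genes were lower and 31.8% higher. Their median log2 fold change was -0.40, beside -0.01 for all tested genes. The Frizzled receptor gene Fzd6 fell furthest, from 2993, 3053 and 3050.5 normalized counts in WT to 191, 164 and 157 in GαqKO. Its groups lay far apart, at a log2 fold change of -4.15 (SE 0.0709, adjusted p = 1.97e-14). Fzd3 had a log2 fold change of -1.52 (adjusted p = 3.42e-09) and Prickle1, a cytoplasmic polarity protein gene, one of -2.13 (adjusted p = 9.10e-06). The Vangl genes went opposite ways. Vangl2 had 520.0, 500.3 and 555 normalized counts in WT and 318, 332 and 332 in GαqKO. Vangl1 had 588, 566 and 590.4 in WT and 978, 987 and 910.4 in GαqKO. Neither overlapped between the groups, with log2 fold changes of -0.68 for Vangl2 (adjusted p = 1.65e-06) and 0.72 for Vangl1 (adjusted p = 9.50e-08). Dvl1 and Dvl3 were also lower, with log2 fold changes of -0.30 and -0.50, whereas Dvl2, Prickle2 and Ankrd6 were not called.

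Cdh1 and Krt14, the 2 tested genes of the 6 epithelial markers listed, were lower in GαqKO, as Celsr1 and Celsr2 were, and both passed the filter through WT. Cdh1, the gene of E-cadherin, had 241, 235 and 238 normalized counts in WT and 8.45, 10.4 and 5.04 in GαqKO, and the keratin gene Krt14 had 261, 254 and 259.6 in WT and 0, 2.31 and 1.01 in GαqKO. Over all 6 listed genes (Epcam, Cdh1, Krt8, Krt18, Krt5 and Krt14) the sum was 515 to 541 normalized counts in the WT libraries and 10.1 to 23.1 in the GαqKO libraries. Krt8 and Krt18 were not tested, Epcam had 5.22, 2.91 and 1.02 normalized counts in WT and 2.82, 8.09 and 3.02 in GαqKO, and Krt5 stayed under the floor in both groups. The fibroblast list was mixed, as 5 of its 10 tested genes were higher and 5 lower, where 31.8% of all tested genes were higher and 34.1% lower. Pdgfra had 21.9, 17.5 and 19.3 normalized counts in WT and 2329, 2356 and 2274 in GαqKO, and Dcn had 35.5, 30.1 and 30.5 in WT and 1710.0, 1674 and 1604 in GαqKO. The WT libraries were low in Pdgfra and Dcn, although Col1a1, Col1a2, Vim and Fn1 were abundant in them. Col1a1, Fn1, Col1a2, Vim and Col3a1 were the 5 lower in GαqKO, with log2 fold changes of -1.53, -0.73, -0.36, -0.32 and -0.18. Among the 5 higher, Pdgfrb differed least, at 0.23. The part of these marker differences in the Celsr values was not tested.

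**Figure D2:**
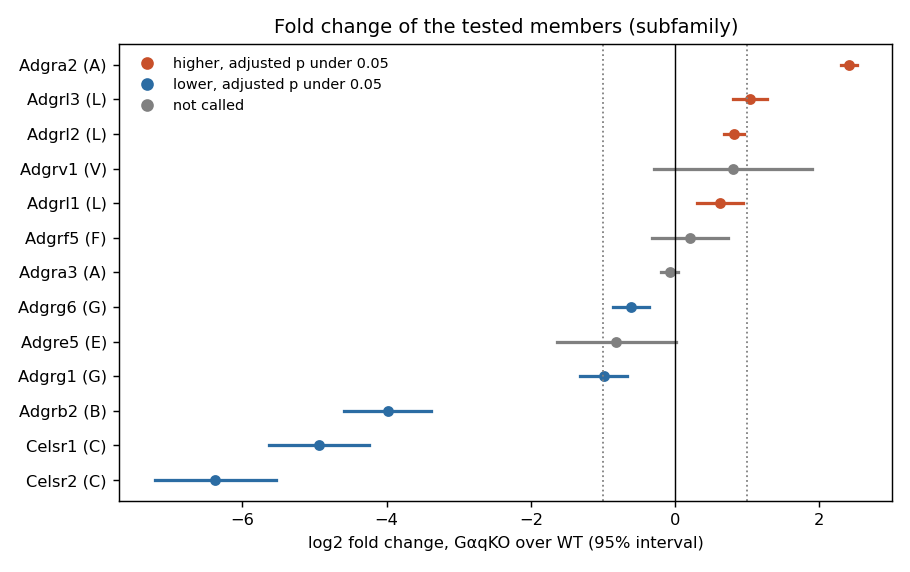
Log2 fold change of GαqKO over WT, with its 95% interval from limma, for the 13 tested members, each with its subfamily letter, and dotted lines at -1 and 1. The 3 L members lie right of 0 and the 2 C, 2 G and 1 B members left of it, while the intervals of Adgrv1, Adgre5, Adgrf5 and Adgra3 cross 0.

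The B subfamily receptors are known from synapses and from the uptake of dying cells, where the cytoplasmic pair Elmo1 and Dock1 links them to Rac1. Only Adgrb2 (ENSMUSG00000028782.15; chromosome 4, 129877901 to 129916437, plus strand) was tested. It had 157, 156 and 155 normalized counts in WT and 6.57, 15.0 and 7.05 in GαqKO. The WT libraries lay within 2 counts of each other and far above all GαqKO libraries, with a log2 fold change of -3.98 (SE 0.280, adjusted p = 2.48e-08). Adgrb1 was at or under the floor in all libraries, and Adgrb3 had 11.5, 5.83 and 5.09 normalized counts in WT and 6.57, 18.5 and 3.02 in GαqKO. Among the 11 listed partners of the subfamily 8 were tested, and 4 were higher and 4 lower. Of all tested genes 31.8% were higher and 34.1% lower. C1ql1, a secreted ligand of Adgrb3, had 198, 190.4 and 176 normalized counts in WT and was listed at 0 in all GαqKO libraries, at least 62.8-fold lower (adjusted p = 1.21e-10). Elmo1 fell from 405, 400.2 and 443 to 10.3, 15.0 and 13.1 normalized counts, with a log2 fold change of -4.93 (SE 0.175, adjusted p = 2.15e-11). Its relative Elmo2 and the joint partner Dock1 moved the other way, by 0.42 (adjusted p = 2.88e-05) and 0.41 (adjusted p = 6.08e-04) on the log2 scale, and Rac1 was lower, at -0.14 (adjusted p = 0.00785). The Nogo receptor relatives Rtn4rl1 and Rtn4rl2 rose, Rtn4rl1 from 12.5, 9.71 and 12.2 to 68.5, 55.5 and 50.4 normalized counts (adjusted p = 3.93e-06) and Rtn4rl2 from 4.18, 0.971 and 5.09 to 35.7, 43.9 and 42.3 (adjusted p = 1.09e-05). C1ql4 was lower, with a log2 fold change of -1.17 (adjusted p = 0.00393). Tubb3, a neuronal tubulin gene, was also lower, with 428, 425 and 365 normalized counts in WT and 64.8, 70.5 and 47.3 in GαqKO (adjusted p = 1.70e-09). Sox10, a marker of Schwann cells, was at or under the floor throughout, and the part of such cells in the Adgrb2 values was not tested.

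Adgrg1 and Adgrg6 are matrix-binding receptors, known for binding collagen III (Adgrg1) and collagen IV and laminin (Adgrg6). Both were lower in GαqKO. Adgrg1 (ENSMUSG00000031785.17; chromosome 8, 95701315 to 95742028, plus strand) had 168, 169 and 149.6 normalized counts in WT and 75.1, 71.7 and 98.7 in GαqKO. All GαqKO libraries lay below all WT libraries, with a log2 fold change of -0.99 (SE 0.151, adjusted p = 5.42e-05). Adgrg6 (ENSMUSG00000039116.8; chromosome 10, 14277458 to 14421421, minus strand) had 225, 201 and 202 normalized counts in WT and 146, 141 and 123 in GαqKO. Its groups did not overlap either, and the log2 fold change was -0.61 (SE 0.115, adjusted p = 3.55e-04). Among their matrix ligands, Col3a1, Col4a1 and Col4a2 were all called lower, with log2 fold changes of -0.18, -0.69 and -0.31, and Lama2 was not called, with an adjusted p of 0.606. Adgrg2 had 15.7, 7.77 and 14.2 normalized counts in WT and 1.88, 5.78 and 1.01 in GαqKO, under the filter because only 2 libraries reached 10. The neighbouring genes Adgrg5, Adgrg1 and Adgrg3 on chromosome 8, with 31.4 and 2.3 kb between them, did not share a level. Adgrg5 had 6.27, 0.971 and 1.02 normalized counts in WT and 7.51, 6.94 and 11.1 in GαqKO, and Adgrg3 had 0.971 to 5.78 over all libraries. Adgrg4 stayed at or under the floor, and Adgrg7 passed it in 1 library, at 3.13 normalized counts.

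The tested E, F and V members, 1 of each, were thinly counted and missed the threshold. Adgre5, which encodes the leukocyte and stromal receptor CD97, had 23.0, 18.5 and 19.3 normalized counts in WT and 6.57, 19.7 and 10.1 in GαqKO. GαqKO replicate 2 lay inside the WT range and the other 2 below it, and the log2 fold change was -0.82 (95% interval -1.64 to 0.01, adjusted p = 0.0755). Without GαqKO replicate 2 it was -1.21, with an adjusted p of 0.0123. All of its exon bases lie inside the spans of other genes, and 48.6% inside their exons (Ddx39a and Gm10644), so its counts are uncertain. Adgrf5, a receptor known from the lung epithelium, had 29.2, 23.3 and 33.6 normalized counts in WT and 33.8, 30.1 and 35.2 in GαqKO. Its groups overlapped, with a log2 fold change of 0.21 (95% interval -0.32 to 0.73, adjusted p = 0.468). Adgrv1, the very large receptor of hair cells, had 26.1, 4.86 and 13.2 normalized counts in WT and 37.6, 19.7 and 14.1 in GαqKO. Its groups overlapped widely, at a log2 fold change of 0.80 (95% interval -0.29 to 1.90, adjusted p = 0.179), and without WT replicate 1 it was 1.33 (adjusted p = 0.035). The surface ligand gene Thy1, a binding partner of Adgre5 and a fibroblast marker, rose from at most 2.09 normalized counts in WT to 59.2, 59.0 and 76.5 in GαqKO, at least 21.6-fold (adjusted p = 2.20e-07). Over all 15 listed ligands of the G, E, A, D and F subfamilies 9 were tested, with 1 higher, 4 lower and 4 not called. Of all tested genes 31.8% were higher and 34.1% lower.

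Among the members under the filter, 6 were at or under the floor of 3 counts in every library, namely Adgra1, Adgrb1, Adgrf1, Adgrf3, Adgrf4 and Adgrg4. The other 11 reached at most 18.5 normalized counts, in Adgrb3. Adgre4, a myeloid gene of the mouse, had 2.09, 1.94 and 1.02 normalized counts in WT and 5.63, 12.7 and 11.1 in GαqKO. Its GαqKO libraries all lay above the WT libraries, at least 3.27-fold by the floor. The same order was seen for Adgrg5 and Celsr3, and the reverse for Adgrf2 and Adgrg2. How often all genes under the filter separate in this way was not counted, so it is no result about these members. Adgre1, the gene of the antigen that marks mouse macrophages, had 1.04, 0 and 2.04 normalized counts in WT and 2.82, 6.94 and 2.01 in GαqKO, with overlapping groups. The leukocyte markers (Ptprc, Cd68, Csf1r, Itgam and Lyz2) summed to 104 to 120.5 normalized counts in the WT libraries and 67.6 to 97.1 in the GαqKO libraries. Most of that sum was Cd68, which was lower in GαqKO (log2 fold change -0.48, adjusted p = 0.0296), while Ptprc reached at most 3.13 normalized counts and Itgam was listed at 0. The part of these markers in the Adgre values was not tested. Adgrd1 had 9.40, 0.971 and 3.05 normalized counts in WT and 0, 4.62 and 0 in GαqKO, and Adgrf2 had 2.09, 1.94 and 8.14 in WT and 0, 1.16 and 1.01 in GαqKO, both under the filter.

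Some thinly counted members are very long genes, and low counts in long genes differed between libraries of the same genotype. Over 134 other protein-coding genes with spans over 500 kb and a mean under 30 normalized counts, the median was 18.2, 3.00 and 12.3 in WT and 13.4, 21.2 and 8.47 in GαqKO, in normalized counts per megabase of gene span. Adgrb3, with a span of 763 kb, had 15.1, 7.64 and 6.67 in WT and 8.62, 24.3 and 3.96 in GαqKO on this scale. It lay above the median in WT replicate 2 and GαqKO replicate 2 and below it in the other 4 libraries, and it was highest in GαqKO replicate 2, where the median was highest too. Adgrv1, with a span of 538 kb, had 48.5, 9.03 and 24.6 in WT and 69.8, 36.5 and 26.2 in GαqKO. It stood above the median in each library but was lowest where the median was lowest, in WT replicate 2. Adgrl3 is longer still, at 806 kb, and had 312, 385 and 446 in WT and 852, 758 and 725 in GαqKO per megabase, well above this level throughout.

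**Figure D3:**
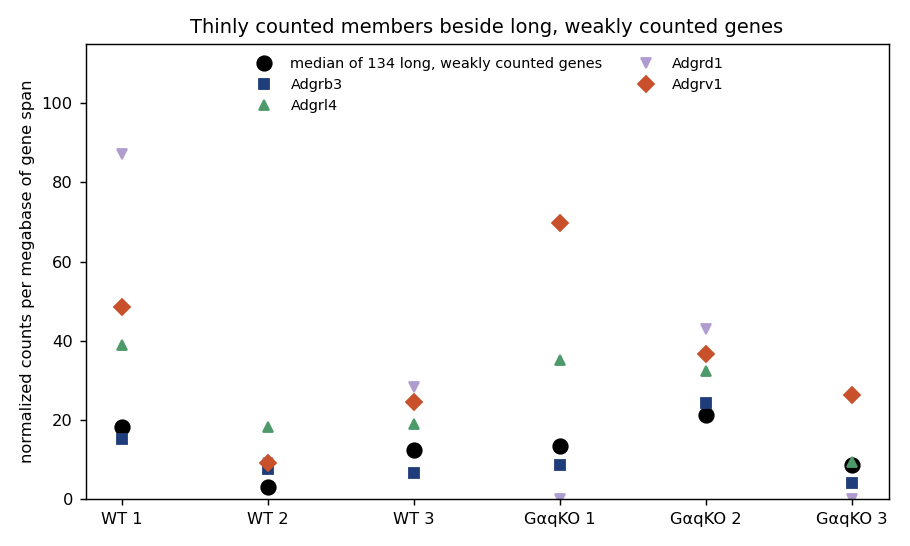
Normalized counts per megabase of gene span in each of the 6 libraries for Adgrb3, Adgrl4, Adgrd1 and Adgrv1 (coloured symbols), beside the median of 134 long, weakly counted genes (black circles). The median moves between 3.00 in WT replicate 2 and 21.2 in GαqKO replicate 2, and Adgrb3 lies above it in those libraries and below it in the other 4.

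Counted together, the 30 members had a summed level of 438, 447 and 520.0 normalized counts per kilobase of exon in WT and 1198, 1140.1 and 1159.9 in GαqKO. The GαqKO mean was 2.49 times the WT mean, and Adgra2 made up most of the difference. In normalized counts not divided by length the ratio was 2.08 with Adgra2 and 1.20 without it. Adgra2 took 32.8% ± 1.22 of the summed level per kilobase in WT and 70.0% ± 0.723 in GαqKO (SD, n = 3). The share of Celsr1 went from 4.63% ± 0.409 to 0.0581% ± 0.0278, that of Adgrb2 from 4.28% ± 0.417 to 0.106% ± 0.0548, and that of Adgrg1 from 4.04% ± 0.622 to 0.811% ± 0.149. Even the latrophilin Adgrl1, whose own level was higher in GαqKO, held a smaller share there, at 12.8% ± 1.34 against 20.9% ± 3.77 in WT. With the longest transcript as the length instead of all exons, the Adgra2 share was 25.7% in WT and 61.9% in GαqKO.

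**Figure D4:**
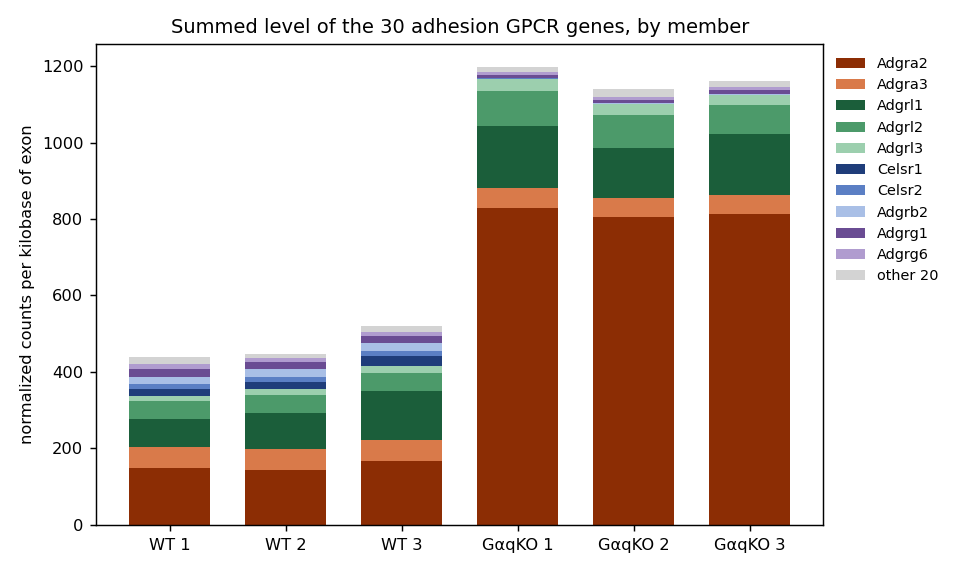
Summed normalized counts per kilobase of exon of the 30 members in each of the 6 libraries, stacked by member, with the other 20 pooled in grey. Adgra2 fills 32.8% of the WT bars and 70.0% of the GαqKO bars on average, and the blue bands of Celsr1, Celsr2 and Adgrb2 are visible in WT only.

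In WT the order per kilobase of exon began with Adgra2 at 153 ± 11.9, Adgrl1 at 99.1 ± 27.1, Adgra3 at 54.1 ± 1.40 and Adgrl2 at 47.8 ± 1.52 normalized counts per kilobase (SD, n = 3). The next 6 members lay close together. They ran from Celsr1 at 21.8 ± 4.01 through Adgrb2, Adgrg1, Adgrl3 and Celsr2 to Adgrg6 at 12.1 ± 0.778, and the neighbours Celsr1 and Adgrb2, Adgrl3 and Celsr2, and Celsr2 and Adgrg6 overlapped in their ranges over libraries. In GαqKO the order was Adgra2 at 815 ± 12.1, Adgrl1 at 149.8 ± 18.4, Adgrl2 at 84.6 ± 7.85, Adgra3 at 51.3 ± 0.393 and Adgrl3 at 29.4 ± 2.49. No neighbours among these 5 overlapped, whereas Adgrg1 and Adgrg6, which followed them, did. Among the 30 members Celsr1 moved from place 5 in WT to place 15 in GαqKO, Celsr2 from 9 to 27 and Adgrb2 from 6 to 12. These places, and those of the leading members, depend on the length used. With the longest transcript Adgra2 kept place 1. Adgrl1 fell to place 3 in both genotypes, behind Adgra3 in WT and behind Adgrl2 in GαqKO. By the longest transcript Celsr1 went from place 9 to 17, Celsr2 from 10 to 27 and Adgrb2 from 7 to 12, and 5 of the 13 tested members held their place in the WT order and 9 in the GαqKO order.

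The G alpha subunits carry the signal of adhesion GPCRs into the cell. Of the 12 subunit genes listed, Gnaq and Gna11 among them, 10 were tested, with 4 higher, 3 lower and 3 not called. Over all tested genes 31.8% were higher and 34.1% lower. The subunits that adhesion GPCRs are most often linked to, Gna12 and Gna13, were not called, with log2 fold changes of 0.13 (95% interval -0.09 to 0.36) and 0.06 (95% interval -0.06 to 0.18). The inhibitory subunit gene Gnai1 fell from 866, 864 and 870.3 normalized counts in WT to 6.57, 4.62 and 3.02 in GαqKO (log2 fold change -7.29, SE 0.215, adjusted p = 3.69e-12). Gnao1, of the same class, rose from 529, 438 and 541 to 2142, 2092 and 2117 normalized counts (log2 fold change 2.08, adjusted p = 1.74e-11). Gnas, the stimulatory subunit gene, had a log2 fold change of 1.23 (adjusted p = 6.60e-10), and Gna14, a close relative of Gnaq, rose from 6.27, 0 and 3.05 to 57.3, 46.2 and 56.4 normalized counts (adjusted p = 2.35e-05).

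Over all 61 ligand, partner and subunit genes listed, 46 were tested, and 13 were higher, 18 lower and 15 not called, where 31.8% of all tested genes were higher and 34.1% lower. Their median log2 fold change was 0.01. Past the fold threshold 7 were higher and 9 lower. Thy1, Rtn4rl2 and Gna14 passed the filter through their GαqKO libraries, and C1ql1, Gnai1 and Wnt7b through their WT libraries, which set their directions. Of the genes whose proteins form a complex with Adgrv1, Pdzd7 was higher (log2 fold change 0.82, adjusted p = 0.0483) and Whrn lower (log2 fold change -0.66, adjusted p = 8.00e-06).

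**Figure D5:**
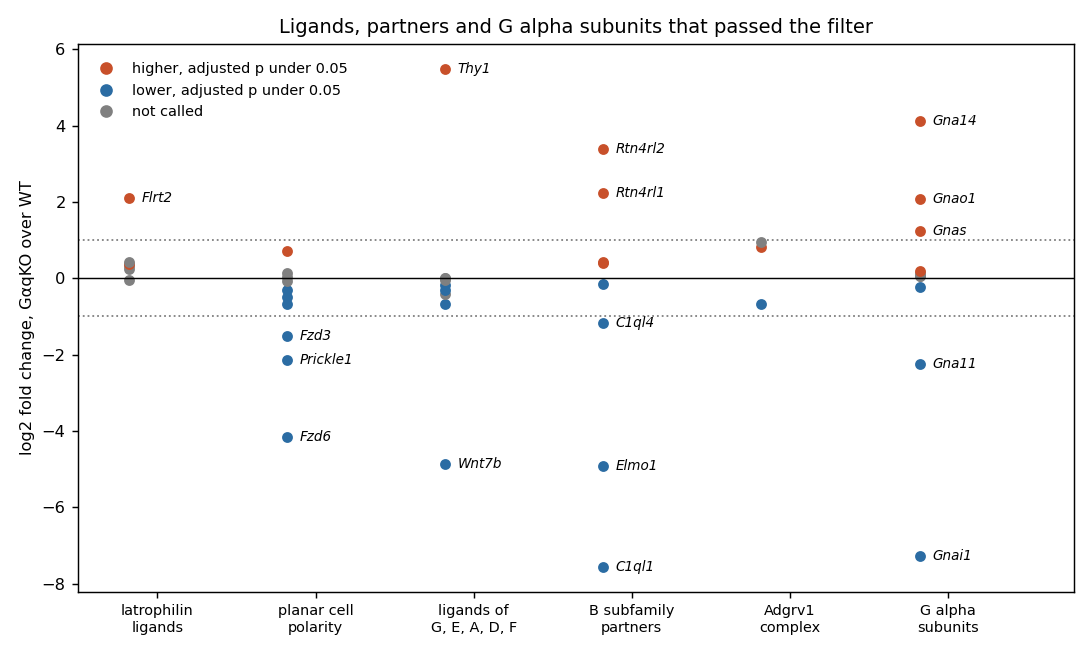
Log2 fold change of GαqKO over WT for the 46 tested ligand, partner and G alpha subunit genes, in 6 lists, with names for those past the dotted lines at -1 and 1 that were called. Fzd6, Wnt7b, Elmo1, C1ql1 and Gnai1 lie below -4, and Thy1 and Gna14 lie above 4.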

How the data were processed

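Polyadenylated RNA of 3 WT and 3 GαqKO MEF libraries was sequenced as paired reads. Per the study's methods the authors used Rbowtie2 for alignment (GRCm39), featureCounts with GENCODE release 32 for counting and DESeq2 for testing. Tool versions and the strand setting were not given in the sources used here. The deposited values are a signal, gene counts divided by 1 size factor per library. Protein-coding genes wholly inside other spans on the opposite strand were listed at 0 in 84.1% of 372 cases. Adgrl1 and Adgre5 also lie wholly inside other spans in GENCODE release 39 and were counted.

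Gene symbols, spans and exon lengths were taken from GENCODE release 39, which matched 56310 of 56953 identifiers. Members were found by symbol, and members and lists were chosen with earlier results of these data known. The deposited values were analysed as log2(normalized count + 1), which understates the change of low genes, with limma 3.58.1 in R 4.3.3 (trend in the prior spread, genotype as the only term, Benjamini-Hochberg adjustment over the 14096 genes that reached 10 normalized counts in 3 or more libraries). Standard errors and 95% intervals come from that fit. A group with every library at or under 3 counts was set to this floor per library for a bound on the fold. It covers counting error only. On simulated data the fit recovered 200 of 200 changed genes, with 5 false calls among 13740 genes. The simulation changed only genes well counted in WT, by at least 2-fold, and gave every gene the same spread. It therefore does not show how thinly counted genes or smaller changes fare. Whole reads were recovered from the steps of the values in 5 libraries and used for edgeR 4.0.16 and DESeq2 1.42.0 as alternatives. None of the replicate pairs compared agreed within sampling noise, with a mean chi-square per gene of 2.44 to 5.50. These were pairs within a genotype whose reads were recovered, so GαqKO replicate 3 was not among them. Every member is named. Of the ligand and partner genes, those past both thresholds and single comparison genes are given with values. Some listed genes are not reported here. Other alternatives were the filter, the pseudocount, TMM scaling, the prior trend, the replicate block and leaving out each library.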

Additional observations from a re-analysis of the deposited data

How the results depend on the processing

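Among the recomputed log2 fold changes of the 13 tested members, Gnaq and Gna11, 217 kept both their direction and their side of the threshold, and the 3 others kept their direction. With the fold threshold added, 2 members were higher instead of 4 and 3 lower instead of 5, and 7 partner genes were higher instead of 13 and 9 lower instead of 18. A filter of at least 10 normalized counts in every library left 2 members lower, Adgrg1 and Adgrg6, since it drops genes that one genotype lacks. Adgrl1 lost its call in DESeq2 on 5 libraries, at 0.56 and an adjusted p of 0.159. Adgre5 passed without GαqKO replicate 2, at -1.21 and 0.0123, and Adgrv1 without WT replicate 1, at 1.33 and 0.035. The cause was not tested. Leaving out single libraries moved Adgrl3 between 0.90 and 1.16 and Adgrg1 between -1.13 and -0.90, so their side of the fold threshold depends on it. With a pseudocount of 5 Celsr2 was at -4.72. With the longest transcript as length, 9 of 13 tested members held their place in the GαqKO order and 5 in the WT order. TMM scaling shifted the median gene by 0.01 on the log2 scale. Libraries with the same replicate number did not deviate together (correlations -0.0453, -0.148 and -0.0638, with no library closest to its own number), so the numbers do not pair the samples. With a replicate block 4 members were higher and 5 lower, and 13 and 18 partner genes.

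The depth limits what can be said of the 17 members under the filter, and of Adgre5, Adgrf5 and Adgrv1, whose intervals include changes over 1.5-fold.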
